A study of Mus musculus with 12 samples.

Results

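Follistatin, activin and bone morphogenetic protein (BMP) genes of the mouse cochlea were followed along the tonotopic axis, from the apex, which codes low frequencies, to the base, which codes high frequencies. The 10 genes were *Fst*, *Fstl1*, *Fstl3*, *Inhba*, *Inhbb*, *Bmp2*, *Bmp4*, *Bmp7*, *Chrd* and *Grem1*, taken as all non-control probes that carry these gene names. All 10 were on the array, as 10 of 19505 genes and 61 of 165865 probes used. *Fst* had been picked for its high signal in the apical turn, so its values are given as a description, with no test.

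Expression was measured on 12 single-color exon arrays, 4 from the apical turn, 4 from the middle turn and 4 from the basal turn of male C57BL/6 mice aged 6 weeks. The study used 4 mice, so turns share animals, but the labels do not tie sample numbers to mice and the 12 arrays were fitted as independent samples. No treatment or altered gene was named for any group. Each tissue piece held the organ of Corti and the lateral wall (spiral ligament, spiral prominence and stria vascularis), and by the methods of the study also spiral ganglion neurons, and 25 ng of total RNA was labeled per array. Signals are fluorescence intensities scaled to the same 75th percentile on each array, which compare turns for a gene but not genes with each other. A gene's value is the mean of the log2 signals of its probes, turned back to the signal scale. SDs are over 4 arrays of a turn, and differences between turns are in log2 units with the SE of the limma fit.

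Activins are dimers of the inhibin beta subunits encoded by *Inhba* and *Inhbb*. They bind activin receptors and lead to phosphorylation of Smad2 and Smad3, whereas BMPs act through Smad1, Smad5 and Smad9. Follistatin, the product of *Fst*, is a secreted protein that binds activins almost irreversibly and binds some BMPs more weakly, while chordin and gremlin 1 bind BMPs. In the developing cochlea, graded activin and follistatin activity is known to set the timing of hair cell differentiation along the duct, and *Bmp4* and *Bmp7* take part in patterning it.

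The probes are 60 bases long. Those on which the results below turn are printed from 5′ to 3′, with positions in mm9. Capitals mark runs of at least 4 bases that are all G or C. Probes 1 to 5 of the 6 *Fst* probes are shown because the 5′ probe differed from those after it, and probe 6, nearest the 3′ end, is not printed. The *Inhba* pair is shown because both probes had the same gradient, *Inhbb* probe 1 because it ran against the other *Inhbb* probe, and the *Fstl3* pair because one was flat and the other was higher at the base.
*Fst* probe 1 (chr13:115248710-115248769, minus strand): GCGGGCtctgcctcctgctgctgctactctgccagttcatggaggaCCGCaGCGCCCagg
*Fst* probe 2 (chr13:115246602-115246661, minus strand): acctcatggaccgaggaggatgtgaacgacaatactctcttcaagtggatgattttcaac
*Fst* probe 3 (chr13:115246046-115246105, minus strand): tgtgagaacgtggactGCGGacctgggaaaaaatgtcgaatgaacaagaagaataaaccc
*Fst* probe 4 (chr13:115245492-115245551, minus strand): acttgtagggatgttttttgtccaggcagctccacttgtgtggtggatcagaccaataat
*Fst* probe 5 (chr13:115244488-115244547, minus strand): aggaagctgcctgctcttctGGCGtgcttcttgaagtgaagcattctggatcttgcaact
*Inhba* probe 1 (chr13:16109292-16109351, plus strand): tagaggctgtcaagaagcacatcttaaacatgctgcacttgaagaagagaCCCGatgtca
*Inhba* probe 2 (chr13:16118634-16118693, plus strand): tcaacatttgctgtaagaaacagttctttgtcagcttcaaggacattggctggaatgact
*Inhbb* probe 1 (chr1:121317324-121317383, minus strand): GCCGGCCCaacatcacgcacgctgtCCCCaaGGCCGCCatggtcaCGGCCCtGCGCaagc
*Fstl3* probe 2 (chr10:79241434-79241493, plus strand): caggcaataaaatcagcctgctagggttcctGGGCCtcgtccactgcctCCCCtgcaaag
*Fstl3* probe 4 (chr10:79243994-79244053, plus strand): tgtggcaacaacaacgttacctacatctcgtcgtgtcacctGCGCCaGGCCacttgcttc
*Fst* probe 1 had a share of G and C of 68.3%, against 45% in probes 2, 3 and 4 50% in probe 5 and 35% in probe 6. *Inhbb* probe 1 had 71.7%.

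Each turn had a slide of its own that held its 4 arrays, so slide and turn cannot be told apart in any comparison below. The 75th percentile of the unscaled signals ran from 534.6 to 722.1, and 77.4% to 81.4% of spots were well above background. Over all genes, arrays of the same turn correlated with r from 0.99097 to 0.99476. The genes of 13 marker lists, hair cells, spiral ganglion neurons and spiral ligament fibrocytes among them, all had a probe well above background in some turn. Many markers differed between apex and base at an adjusted p under 0.05, as did 45.6% of all genes with a probe well above background. The counts that follow are of such markers. All 6 hair cell markers were higher at the apex than at the base, with a summed signal of 13878.7 to 18253.3 at the apex, 10660.8 to 12356.9 in the middle and 2967.6 to 5447.2 at the base. Of 6 spiral ganglion neuron markers, 5 were higher at the apex and 1 at the base, and their sum spanned 21806.6 to 28478.8 at the apex and 4114.3 to 18169.2 at the base. Of 5 fibrocyte markers, 4 were higher at the base and 1 at the apex, with sums of 294125.3 to 324986.9 at the apex and 562965.8 to 628046.3 at the base. Schwann cell markers (5 of 5) were also higher at the apex. Markers of strial marginal cells, strial intermediate cells and macrophages (4 of 5 each) and of endothelium (3 of 5, with 1 at the apex) were higher at the base. Supporting cells were split by count, with 3 of 6 higher at the apex and 2 at the base, as was cartilage, with 2 and 3 of 5. Their sums, in which the brightest markers weigh most, were higher at the base. Supporting cells had sums of 171022.1 to 195944.1 at the apex and 260373.8 to 313759.1 at the base. Cartilage had 1012 to 1136.4 and 1661 to 2050.2. The median log2 difference of apex minus base over the markers was 0.38 for supporting cells, against their sum, and -0.53 for cartilage. Of the bone markers 1 of 6 and of the skeletal muscle markers 2 of 5 were higher at the base, and 0 of 5 blood markers passed in either direction. The part of these shifts in the results below was not tested. In whole tissue, fewer cells of a type and less RNA per cell cannot be told apart.

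*Fst* had a steep gradient from the apex to the base. Its 6 probes lie within chr13:115243565-115248769, minus strand. Its signal was 4119.6, 4014.8, 2846.2 and 3532.6 on the 4 apical arrays, 765.6, 838.5, 607.6 and 656.0 on the middle arrays, and 226.3, 161.0, 175.2 and 129.1 on the basal arrays. The lowest apical array was above the highest middle array, and the lowest middle array was above the highest basal array. Mean signals were 3628.3 ± 581 at the apex, 716.9 ± 105 in the middle and 172.9 ± 40.5 at the base (SD, n = 4). *Fst* was 21.2-fold higher at the apex than at the base, a log2 difference of 4.41 ± 0.18 (SE). It was 5.05-fold higher at the apex than in the middle and 4.20-fold higher in the middle than at the base. Both steps along the axis were thus of similar size in this summary of the probes, but not in all forms given below. Between single arrays, the apex over base ratio ran from 12.6 to 31.9. Of all 19505 genes, 1 had a larger log2 difference of the apex over the base. As *Fst* had been picked for its apical signal, this rank is a description only.

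**Figure D1:**
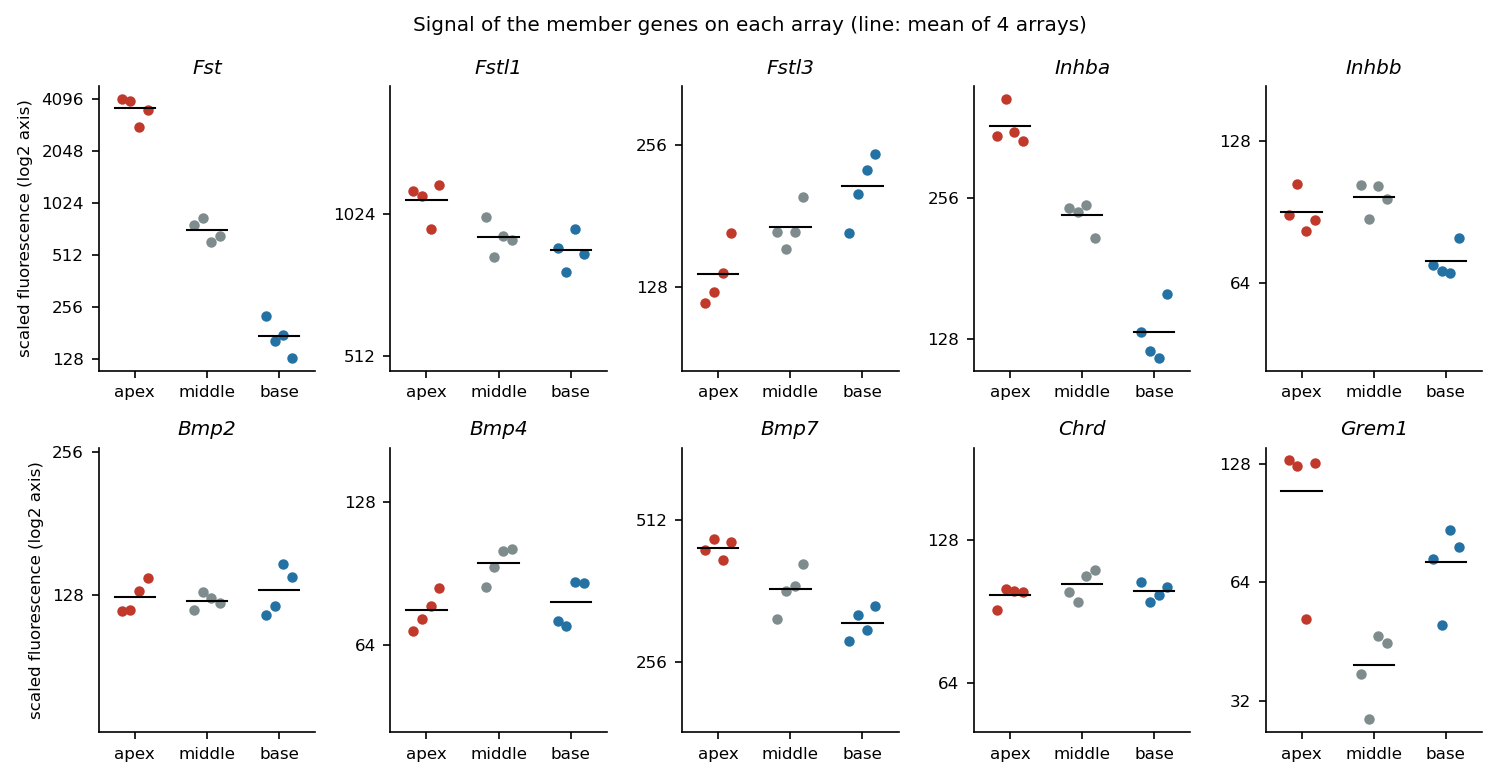
Signal of each of the 10 genes on each array (points, 4 per turn) with the mean of the turn (line), on log2 axes that differ between panels. *Fst* fell from 3628.3 at the apex to 172.9 at the base with no overlap between turns, *Inhba* fell along the same axis, and *Fstl3* ran the other way.

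The 6 *Fst* probes did not share this gradient equally. Probe 1, at the 5′ end, had mean signals of 3311.0 ± 184 at the apex, 2639.6 ± 146 in the middle and 2724.2 ± 91.6 at the base, a log2 difference of 0.28 between apex and base. The 5 probes after it had log2 differences of 4.89 to 5.33. Probe 2, for example, had 1659.1 at the apex, 250.5 in the middle and 42.6 at the base, where it was well above background on 3 of 4 arrays. The GC-rich probe was thus close to flat over the turns while its neighbors differed strongly between them.

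Without probe 1, the mean *Fst* signal was 3702.1 ± 683 at the apex, 553.8 ± 98.7 in the middle and 100.1 ± 27.9 at the base. This set of 5 probes gave 37.5-fold between apex and base, 6.67-fold between apex and middle and 5.63-fold between middle and base. When linear probe signals were averaged instead of log2 signals, the bright flat probe weighed more, and apex over base was 7.49-fold. Apex over middle was then 4.23-fold and middle over base was 1.77-fold, so these steps differed in size. The normexp background correction gave 13.1-fold for apex over base, 4.56-fold for apex over middle and 2.88-fold for middle over base. The apex had the highest and the base the lowest signal in each of these forms. Over the whole array, the 3957 probes with at least 65% G and C had a median absolute log2 difference of 0.17 between apex and base, against 0.24 for the 161908 other probes. The part of base composition in the flat signal of probe 1 was not tested.

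**Figure D2:**
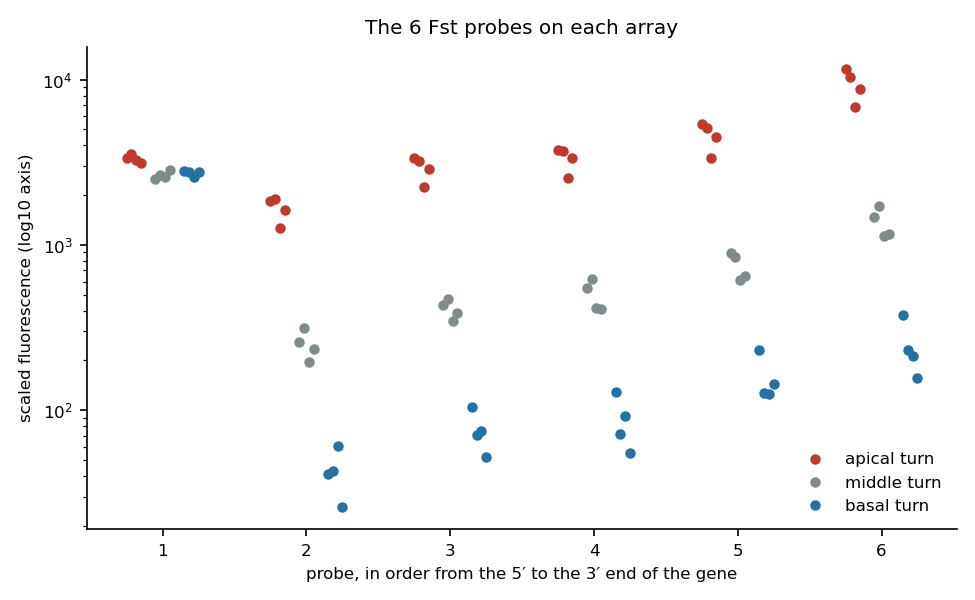
Signal of the 6 *Fst* probes, ordered from the 5′ to the 3′ end of the gene, on each of the 12 arrays (log10 axis, colors mark the turns). Probe 1 lay between 2639.6 and 3311.0 on average in all turns, whereas probes 2 to 6 fell from apex to base with log2 differences of 4.89 to 5.33.

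Among the other 9 members, 5 differed between apex and base at an adjusted p under 0.05, 4 higher at the apex (*Inhba*, *Bmp7*, *Fstl1*, *Inhbb*) and 1 higher at the base (*Fstl3*). Over all genes tested, 39.2% passed this test, 17.6% higher at the apex and 21.6% higher at the base. All 9 members had a probe well above background. Among the 16503 genes with such a probe, 45.6% passed, 20.5% higher at the apex and 25.1% higher at the base. The 5 members that passed had arrays of these turns that did not overlap, as had 38.3% of all genes. Between apex and middle, 4 of 9 passed (*Inhba*, *Bmp7* and *Grem1* higher at the apex, *Bmp4* higher in the middle), against 12% of all genes, with 4.42% higher at the apex and 7.59% higher in the middle. Those 4 had no overlap between arrays, as had 20.8% of all genes. Of the genes with a probe well above background, 13.3% passed between apex and middle. The 4 calls became 1 without apical array 2 and 2 without apical array 1 or middle array 2. Between middle and base, 2 of 9 passed (*Inhba* and *Inhbb*, both higher in the middle), against 20.9% of all genes, with 11.7% higher in the middle and 9.21% higher at the base. Here 3 of 9 (*Inhba*, *Inhbb* and *Grem1*) had no overlap, as had 24.1% of all genes. Of the genes with a probe well above background, 23.6% passed between middle and base. The median log2 difference of the 9 genes was 0.35 for apex minus base, 0.02 for apex minus middle and 0.09 for middle minus base, beside -0.04, -0.07 and 0.04 for all genes. Of the 55 probes of these 9 genes, 22 (apex against base), 8 (apex against middle) and 6 (middle against base) passed, beside 34.4%, 5.91% and 13.8% of all probes. The members were chosen with earlier results of these data known, so these counts describe the 9 genes and do not test them as a set.

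The stricter rule of a moderated F test over the 3 turns with an adjusted p under 0.05 and at least 2-fold between means was met by *Inhba* alone for apex and base, where 4.39% of all genes met it. It was met by *Grem1* alone for apex and middle (0.436% of all genes) and by 0 of 9 for middle and base (2.66% of all genes).

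**Figure D3:**
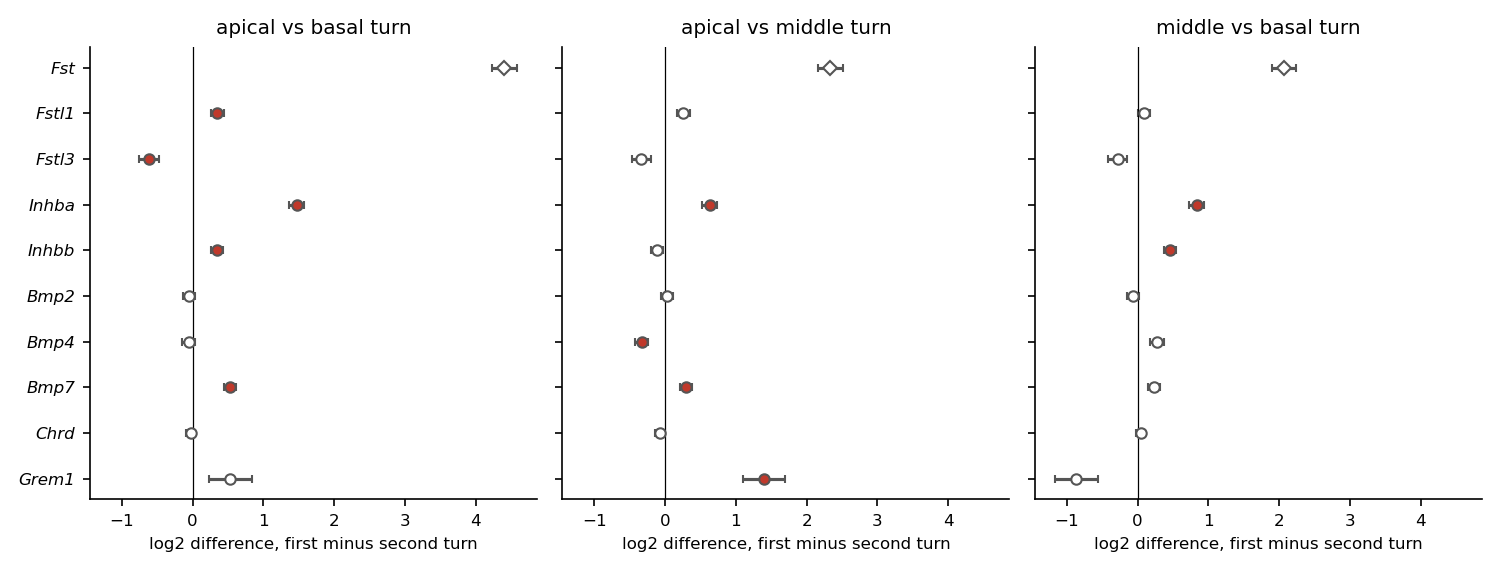
Log2 difference between turns (first minus second) for the 10 genes, with bars for 1 SE of the limma fit over 12 arrays. Filled points have an adjusted p under 0.05 over all genes, open points do not, and *Fst* (diamond) was not tested. *Inhba* is filled in all 3 panels.

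*Inhba*, the activin beta A subunit, had a gradient in the same direction as *Fst*. Its 2 probes lie within chr13:16109292-16118693, plus strand. Its signal was 348.4, 417.2, 354.8 and 339.9 at the apex, 243.9, 239.4, 247.0 and 210.5 in the middle, and 132.5, 121.0, 116.7 and 159.8 at the base. No array of one turn overlapped with another turn. The signal was 2.77-fold higher at the apex than at the base (log2 1.47 ± 0.10, limma adjusted p = 2.74e-06), 1.55-fold higher at the apex than in the middle (0.63 ± 0.10, adjusted p = 0.00482) and 1.79-fold higher in the middle than at the base (0.84 ± 0.10, adjusted p = 0.000437). The pair of probes, both printed above, had log2 differences of 1.56 and 1.38 between apex and base. Each of the 26 alternative settings and array omissions kept all 3 calls, although leaving out dim or GC-rich probes removed neither *Inhba* probe. The F test rule with 2-fold, not among these 26, was met for apex and base only. Of all genes, 237 had a larger difference of apex over base.

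*Inhbb*, the activin beta B subunit (chr1:121312160-121317383, minus strand), was lowest at the base. It had 89.2, 103.8, 82.7 and 87.0 at the apex, 103.5, 87.6, 102.9 and 96.6 in the middle and 69.8, 68.1, 67.4 and 79.9 at the base. The apical and middle arrays overlapped with each other and neither overlapped with the base. The gene was 1.27-fold higher at the apex than at the base (log2 0.35 ± 0.09, limma adjusted p = 0.00788) and 1.37-fold higher in the middle than at the base (0.45 ± 0.09, adjusted p = 0.0049), while apex minus middle was -0.11 (adjusted p = 0.409). Its probes went opposite ways. Probe 1 was lower at the apex, at 50.8 against 63.8 at the base (log2 -0.33, adjusted p = 0.0114 over all probes), and the probe near the 3′ end was higher, at 163.2 against 81.0 (log2 1.01, adjusted p = 0.00117). The *Inhbb* direction therefore depends on the probe, and with arrays scaled to spike-in controls the apex minus base difference of the gene was -0.07.

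*Fstl3*, a follistatin relative that also binds activins (chr10:79240083-79244415, plus strand), ran against *Fst*. It had 118.8, 125.0, 137.2 and 166.3 at the apex, 167.3, 153.9, 167.1 and 198.6 in the middle and 167.0, 201.7, 226.5 and 244.5 at the base. The highest apical array lay just below the lowest basal array. *Fstl3* was 1.53-fold higher at the base than at the apex (apex minus base -0.62 ± 0.14, limma adjusted p = 0.00404), and the call was kept in all 26 alternatives. The middle turn lay between, where apex minus middle (-0.33, adjusted p = 0.123) and middle minus base (-0.28, adjusted p = 0.164) did not pass. All 5 probes were higher at the base and 3 of them passed over all probes. Probe 2, printed above, was nearly flat at 2593.3, 2786.5 and 2856.4 in apex, middle and base, whereas probe 4 had 123.1, 144.2 and 217.8. Probe 3 was well above background on 1 apical, 0 middle and 3 basal arrays.

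*Fstl1*, a secreted glycoprotein with a follistatin domain (chr16:37815813-37836551, plus strand), had a small difference. Its signal was 1140.8, 1113.6, 950.0 and 1176.6 at the apex, 1006.5, 829.4, 916.9 and 901.3 in the middle and 868.5, 772.0, 948.4 and 842.6 at the base. The lowest apical array was barely above the highest basal array. Apex over base was 1.28-fold (log2 0.35 ± 0.09, limma adjusted p = 0.00775), with all 7 probes higher at the apex and 6 of them called. Apex minus middle (0.26, adjusted p = 0.0751, or 0.0398 without apical array 3) and middle minus base (0.09, adjusted p = 0.48) did not pass. With spike-in scaling, apex minus base was -0.07.

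**Figure D4:**
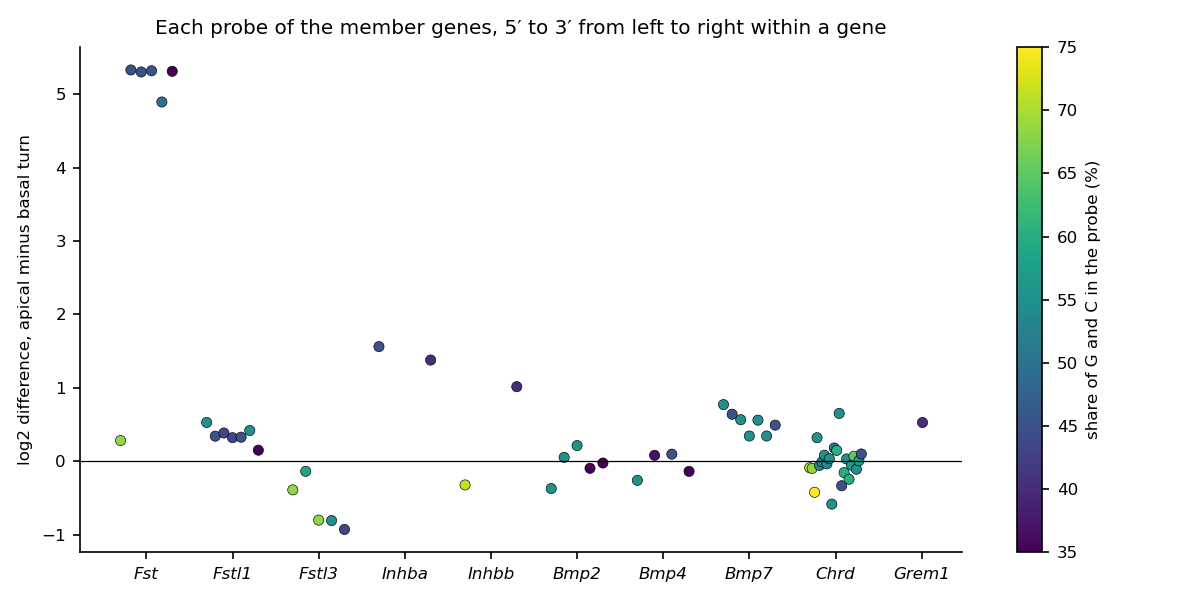
Log2 difference between the apical and basal turn for each of the 61 probes, from 5′ to 3′ within each gene, colored by the share of G and C. All 7 probes of *Bmp7* and of *Fstl1* lie above 0 and all 5 of *Fstl3* below, while the first *Fst* probe (0.28) stands apart from its other 5 probes and the pair of *Inhbb* probes lies on opposite sides.

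Of the BMP ligands, *Bmp7* (chr2:172695203-172765347, minus strand) was higher at the apex. It had 442.4, 465.9, 419.9 and 459.8 at the apex, 315.7, 361.9, 370.3 and 412.8 in the middle and 283.9, 322.3, 298.7 and 335.6 at the base. The apical arrays were above all others, and the middle and basal arrays overlapped. Apex over base was 1.44-fold (log2 0.53 ± 0.08, limma adjusted p = 0.000511), with all 7 probes called in that direction. The difference was 0.11 (adjusted p = 0.367) with spike-in scaling, which lowered all genes alike, and relative to the median of all genes it was 0.565 in either setting. Apex minus middle was 0.30 (adjusted p = 0.0414), a call kept in 12 of 26 alternatives and lost when any of 8 of the 12 arrays was left out. Middle minus base was 0.23 (adjusted p = 0.0695, or 0.0272 without middle array 1).

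*Bmp4*, which marks the outer side of the developing cochlear duct (chr14:47003198-47010127, minus strand), was highest in the middle turn. It had 68.3, 72.3, 77.2 and 84.4 at the apex, 84.6, 93.4, 100.6 and 101.9 in the middle and 71.8, 70.1, 86.6 and 86.5 at the base. The highest apical array was just under the lowest middle array. Apex minus middle was -0.33 ± 0.10 (limma adjusted p = 0.0478), a call that was kept in 13 of 26 alternatives and in 5 of the 12 that left out an array. Middle minus base was 0.28 (adjusted p = 0.0661, or 0.045 without basal array 3) and apex minus base was -0.06 (adjusted p = 0.705). All 4 probes were lower at the apex than in the middle, but only probe 1 passed over all probes (log2 -0.66, limma adjusted p = 0.0228). Probes 2 and 3 had -0.19 (adjusted p = 0.477) and -0.24 (adjusted p = 0.333). Probe 4 was on no array well above background.

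*Bmp2* (chr2:133378761-133388577, plus strand) did not pass in any comparison. Its arrays ran from 118.5 to 138.8 at the apex, from 118.7 to 129.7 in the middle and from 115.7 to 148.2 at the base. The log2 difference of apex minus base was -0.05, with a 95% interval of -0.23 to 0.14 (limma adjusted p = 0.722). Of its 5 probes, only probe 4 passed over all probes, for middle minus base (-0.39, limma adjusted p = 0.0148). Probe 5 had a like difference that did not pass (-0.39, adjusted p = 0.0998). Probe 1 was on no array well above background.

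Among the BMP antagonists, *Chrd*, which encodes chordin (chr16:20733309-20742423, plus strand), did not pass either. Its signal was 98.0 ± 4.58 at the apex, 103.3 ± 7.32 in the middle and 99.9 ± 4.32 at the base, and apex minus base was -0.03 (limma adjusted p = 0.774). Of 22 probes, 10 were higher at the apex and 12 at the base, with 2 of the latter called. With quantile normalization, *Chrd* passed as higher at the base (apex minus base -0.19, adjusted p = 0.016). With spike-in scaling, where the median of all genes was -0.45, *Chrd* (-0.45, adjusted p = 0.0027), *Bmp2* (-0.47, adjusted p = 0.00387) and *Bmp4* (-0.48, adjusted p = 0.00644) passed as higher at the base. *Bmp2* then also passed for middle minus base (-0.33, adjusted p = 0.0437). Relative to the median of all genes, the apex minus base values were 0.008, -0.011 and -0.021 for these 3 genes, as without that scaling.

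*Grem1*, which encodes gremlin 1 and has only 1 probe (chr2:113589227-113589286, minus strand), was lowest in the middle turn. It had 130.5, 126.5, 51.7 and 128.3 at the apex, 37.5, 28.8, 46.9 and 44.9 in the middle and 73.3, 49.8, 87.1 and 78.8 at the base. The third apical array lay far below the other apical arrays, and the probe was well above background on 2 of 4 middle arrays. Apex over middle was 2.63-fold (log2 1.40 ± 0.30, limma adjusted p = 0.0155), but the adjusted p was 0.052 without apical array 2. With the normexp background correction, the log2 difference was 0.62 (adjusted p = 0.026). Apex minus base was 0.53 (adjusted p = 0.198) and rose to 0.86 (adjusted p = 0.00857) without apical array 3. Middle minus base was -0.87 (adjusted p = 0.0639), and the adjusted p was 0.0121 without that same apical array and 0.0413 with quantile normalization.

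Over the 12 arrays, the log2 signal of *Inhba* correlated with that of *Fst* with Pearson r = 0.958, the 108th highest of 16502 genes with a probe well above background. *Bmp7* had r = 0.874, *Fstl1* 0.805, *Inhbb* 0.601 and *Grem1* 0.349. *Bmp4* (-0.20), *Chrd* (-0.20) and *Bmp2* (-0.23) were slightly below 0, and *Fstl3* had -0.86. The genes most like *Fst* were *Smarca1*, a chromatin remodeling ATPase (r = 0.9956), *Rasgrp1*, a Ras exchange factor (0.9911), *Epyc*, a small leucine-rich proteoglycan (0.9895), *Prss23*, a secreted serine protease (0.9875), and *Lpin2*, a phosphatidate phosphatase (0.9869). *Epyc* had mean signals of 39052.1, 22213.1 and 11359.4 in apex, middle and base, and *Smarca1* had 202.3, 115.3 and 72.5. These values follow the turn, and with it the slide, and describe these 12 arrays only.

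The 88 other genes of the activin, BMP and transforming growth factor beta (TGF-beta) pathways, listed by role, included 82 with a probe well above background in some turn. Between apex and base, 31 were higher at the apex and 15 at the base, which is 52.3% of 88, beside 39.2% of all genes. The shares of the 88 also count the genes without such a probe. Among all 16503 genes with such a probe, 45.6% passed, 20.5% higher at the apex and 25.1% higher at the base. Between apex and middle, 10 were higher at the apex and 5 in the middle (17%, against 12% of all genes and 13.3% of those with such a probe). This count of 15 was 8 without apical array 2 and 9 without middle array 4. Between middle and base, 12 were higher in the middle and 11 at the base (26.1%, against 20.9% of all genes and 23.6% of those with such a probe). Their median log2 difference of apex minus base was 0.08, beside -0.04 for all genes. These lists too were chosen with earlier results of these data known, so the counts here and by role below are a description.

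Of 16 other activin, inhibin, TGF-beta and growth differentiation factor ligands, 3 were higher at the apex and 5 at the base, where 17.6% and 21.6% of all genes were. Of those 5, *Mstn* and *Gdf3* were on no array well above background, and without them the count was 3 against 3 of 13 genes. *Gdf15*, a stress-induced member of the family, was higher at the base, with 95.8 ± 14.5 at the apex, 228.1 ± 36.6 in the middle and 378.7 ± 70.9 at the base (apex minus base -1.98 ± 0.16, limma adjusted p = 5.97e-06). Its order was opposite to that of *Inhba*. Of 12 other BMP ligands, 3 were higher at the apex and 1 at the base. *Gdf6*, a BMP-type ligand, had 463.2 ± 167 at the apex, 303.6 ± 98.6 in the middle and 173.3 ± 21.5 at the base (1.35 ± 0.28, adjusted p = 0.00301).

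Of 18 receptors and co-receptors, 9 were higher at the apex and 3 at the base, with log2 differences from -0.67 to 0.80. The 0.80 was that of the dim gene *Acvr1c*, with 21.82 at the apex and 12.45 at the base. Of its 8 probes, 5 at the apex and 7 at the base were well above background on no array. The next highest difference of a receptor was 0.45. All 18 had a probe well above background, and of all genes with such a probe 20.5% were higher at the apex and 25.1% at the base. The F test rule with 2-fold was met by 0 of 18, beside 4.39% of all genes. The gene with the smallest F test p of this list was *Eng*, the endothelial co-receptor endoglin, with 663.4 ± 56.6 at the apex, 890.0 ± 79.9 in the middle and 1055.4 ± 78.6 at the base (-0.67 ± 0.09, limma adjusted p = 0.000136). Among 5 endothelial markers, 3 were higher at the base and 1 at the apex. Their summed signal was 5565.4 to 7378.2 at the apex and 8086.6 to 9748.7 at the base, and its part in the *Eng* difference was not tested. Of 19 other antagonists and modulators, 4 were higher at the apex and 4 at the base. *Vwc2*, which encodes the BMP antagonist brorin, had 102.8 ± 14.5, 101.4 ± 11.8 and 46.4 ± 11.5 in apex, middle and base (1.17 ± 0.17, adjusted p = 0.000303), so that its step lay between the middle and the base.

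Of 10 Smads and Smad ubiquitin ligases, 4 were higher at the apex and 1 at the base. *Smad9*, a receptor-regulated Smad of the BMP branch, had 231.0 ± 14.6, 225.6 ± 35.6 and 108.9 ± 39.3 in apex, middle and base (1.15 ± 0.20, limma adjusted p = 0.00111), also with the step between the middle and the base. Of 13 genes listed as targets, 8 were higher at the apex and 1 at the base, beside 20.5% and 25.1% of all genes with a probe well above background. Their median difference of apex minus base was 0.37, beside -0.04 for all genes. Whether the pathways set the levels of these 13 genes in this tissue was not tested. *Id4*, an inhibitor of DNA binding that BMPs induce in many cells, had 2007.3 ± 238 at the apex, 1513.0 ± 62.2 in the middle and 1157.6 ± 82.4 at the base (0.79 ± 0.09, adjusted p = 5.09e-05). It passed in all 3 comparisons.

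**Figure D5:**
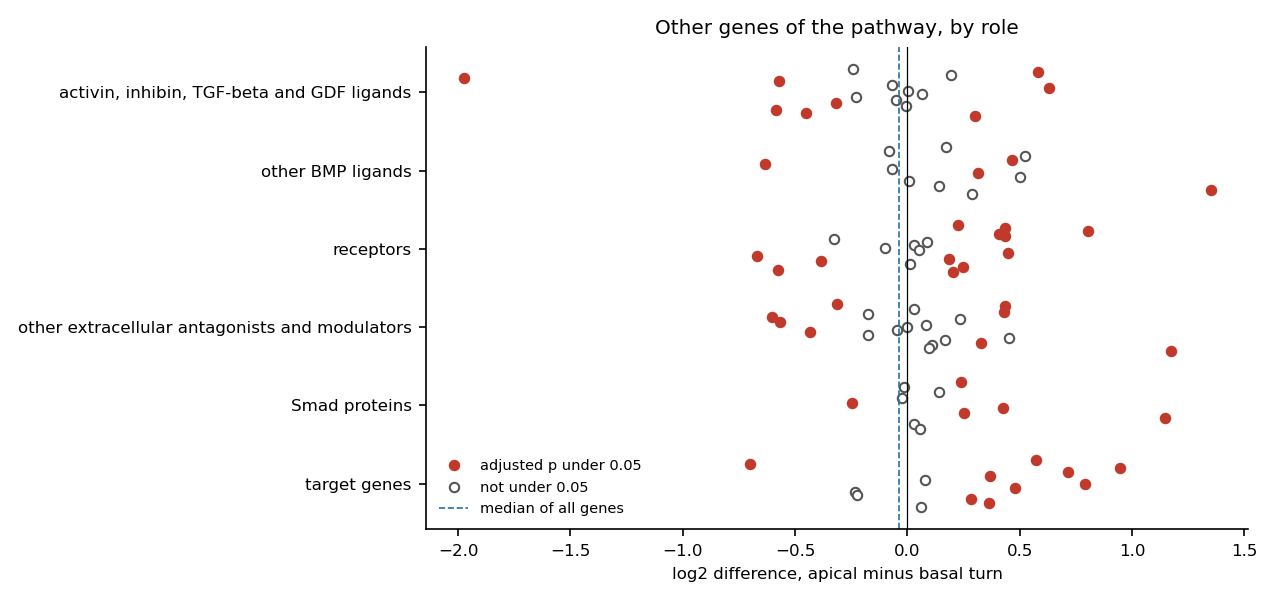
Log2 difference between the apical and basal turn for the 88 other genes of the pathways, grouped by role, with the median of all genes (-0.04) as a dashed line. Filled points have an adjusted p under 0.05, 31 above 0 and 15 below, with *Gdf15* (-1.98) and *Gdf6* (1.35) at the ends.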

How the data were processed

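Spot intensity values were deposited by the authors as scanner output of Agilent Feature Extraction 10.7.3.1 for 12 single-color exon arrays. The processed signal used here had been corrected for background by that software and not normalized between arrays. Probe positions refer to mm9. No annotation of that build was used here, so exons and untranslated regions are not given. The 7914 control spots among the 180880 were removed, as were spots flagged on at least 1 array, and 165865 of 165984 probes remained. The intensities as deposited were scaled to a common 75th percentile (641.3), log2 transformed and averaged per probe and then per gene name, with R 4.3.3, limma 3.58.1 and the data.table package (version 1.17.8). This gave 19505 genes. Turns were compared with lmFit and eBayes over 12 arrays, and p-values were adjusted by the Benjamini-Hochberg method over all genes or all probes. A call is an adjusted p under 0.05.

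Turns were taken from the sample titles. The p-values measure only the spread between these samples. No probe was saturated, and the 12 arrays limit the precision. The members and gene lists were chosen with earlier results of these data known. All 10 members are named. From each pathway list, the text names up to 3 genes with the largest difference among those that passed the F test at 2-fold or, where none did, the gene with the smallest F test p. The 5 genes with the highest correlation with *Fst* are named too. *Mstn*, *Gdf3* and *Acvr1c* are named only for their dim signals. On simulated arrays for apex and base with 19505 genes, 81 of 100 genes changed by log2 1 and 100 of 100 changed by log2 2 were recovered, and 11 unchanged genes were called. The simulated arrays were independent, and far fewer genes were changed than the 39.2% that passed in the data. These recovery and false call counts therefore need not hold for the data. Recovery of differences below log2 1, as most member calls were, was not tested. Alternatives covered the scaling, background, probe summary, dim and flagged probes, test, block and each array left out. The 26 alternatives given for a gene do not include the F test rules with 2-fold. One of them used the deposited value table, which equals the scanner values and so could change nothing. Leaving out GC-rich probes was chosen after the data were seen.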

Additional observations from a re-analysis of the deposited data

Results flagged for a closer look

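In 30 groups of 4 arrays (10 genes in 3 turns), 2 held an array far from the others, where chance gives about 1 in 20. The gaps were taken on the log2 scale. *Grem1* was 51.7 on apical array 3 against 126.5 on the nearest apical array, and this gap was 0.967 of the range of the turn. *Chrd* was 91.2 on apical array 1 against 99.5 on the nearest, a gap of 0.838 of the range. Both gaps were past the 95% limit for 4 values in a test for an outlying value.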

How the results depend on the processing

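For the 9 members apart from *Fst*, the number called between apex and base was 1 under the F test with 2-fold, moderated or plain, 3 with scaling to the median and 5 to 6 with each array left out. Between apex and middle it was 1 under either F test rule, 2 with the mean of linear probe signals, the median of probes, the 8 arrays of the turns compared or quantile normalization, and 1 to 4 with each array left out. Between middle and base it was 0 under either F test rule, 4 with spike-in scaling and 2 to 3 with each array left out. For the 88 pathway genes, the F test rules gave 4, 1 and 2 in these comparisons, the median of probes gave 8 between apex and middle, and leaving out each array gave 43 to 47, 8 to 16 and 16 to 26. With scaling to the median, the median log2 difference of all genes was -0.15 for apex minus base and -0.12 for apex minus middle, and with spike-in scaling it was -0.45, -0.23 and -0.22. The 2 called values that reversed did so with spike-in scaling, apex minus base for *Fstl1* (-0.067) and for *Inhbb* (-0.074). Relative to the median of all genes, they were 0.387 and 0.380 with that scaling and 0.388 and 0.381 in the reported setting. *Fst* apex minus base ran from 2.91 with linear means to 5.23 without GC-rich probes. The cause of these changes was not tested.

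The labels do not say whether a sample number marks a mouse. Arrays of the same number in different turns had correlations of their deviations of -0.037 to 0.227 (mean 0.095, 6 of 12 pairs over 0.1), and those of different numbers had a mean of -0.031, with 2 of 36 over 0.1. Of the 12 arrays, 9 correlated best with their own number. With the number as a replicate block, 5, 5 and 5 members and 49, 20 and 28 pathway genes were called in the 3 comparisons. *Fstl3* was then called for apex minus middle (limma adjusted p = 0.0201), and *Fstl3* (0.0237), *Bmp4* (0.00597) and *Bmp7* (0.0243) for middle minus base, with no member's call lost. The share of all genes called with this block is not given, so these counts cannot be read as particular to the members or the pathway genes.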
